A study of Homo sapiens with 3 samples.

Results

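The ribosome biogenesis and RNA polymerase I genes measured here were 44 genes chosen by name, of 43317 gene names on the array, and they were covered by 60 probes. All 44 were well above background on all 3 arrays, and 22619 genes in total were well above background on at least 1 array. The arrays were 1-colour human expression arrays with 60-base probes, hybridised with Cy3-labelled cRNA made from total RNA. HCT116 is an established human colorectal cancer cell line, and each condition was 1 array: SMARCA4-KD1 and SMARCA4-KD2, transfected with siRNA against SMARCA4, and the scrambled negative control NC. The cells of all 3 arrays shared the line, the serum-supplemented medium and transfection with a lipid reagent. SMARCA4 is an ATPase of the SWI/SNF chromatin remodelling complex, and the comparison asked how its loss altered gene expression in these cells. The sample titles name SMARCA4, whereas the treatment field of the same samples names PRMT1, an arginine methyltransferase, so both genes were checked first.

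For SMARCA4 itself the processed signals were 3960 and 4129 after the 2 knockdowns and 14026 in NC, which left 26.6% and 28.8% of the NC level after scaling each array to its 75th percentile. PRMT1 gave signals of 9801, 10147 and 7683, or 120% and 129% of NC. As to the gene knocked down, the levels thus followed the titles and not the treatment field. The knockdown arrays are titled HCT116-SMARCA4-S12 and HCT116-SMARCA4-S23. Here they take the gene from the titles and the numbers KD1 and KD2, in this order, from the treatment field. The labels do not say which SMARCA4 siRNA either knockdown array received. The epithelial markers EPCAM, CDH1, KRT8, KRT18 and KRT19 were well above background on all 3 arrays, with summed signals of 396685, 388806 and 368429 in the order SMARCA4-KD1, SMARCA4-KD2 and NC. Of 8 markers of immune, endothelial and stromal cells, 4 were not well above background on any array, and their summed signals in the same order were 663, 563 and 519. The NC array came from a different slide than the 2 knockdown arrays, so slide and knockdown cannot be told apart in any value below. Across 8 spike-in RNAs, scaled in the same way, SMARCA4-KD1 differed from NC by a mean log2 value of −0.30 ± 0.09 (SD) and SMARCA4-KD2 by −0.32 ± 0.10, and their part in the results was not tested.

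Ribosomes are built in the nucleolus, where RNA polymerase I transcribes a long precursor that is cut and modified into the 18S, 5.8S and 28S ribosomal RNAs. Small nucleolar ribonucleoproteins guide the chemical modification of this precursor, and assembly factors fold and trim it into the small and large ribosomal subunits. Growing tumour cells are known for high activity of this pathway, and many of its genes are known to be transcribed together.

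With 1 array per condition there was no test within a knockdown, and genes were described by the 1.5-fold threshold that the study's methods name, which is 0.58 on the log2 scale. The ribosome biogenesis genes were on the whole higher after both knockdowns. Of the 44 genes, 33 (75%) were above NC in both knockdowns at any size of difference, whereas 41.1% of all genes were, and 45.1% when the genes were limited to those well above background on every array. Those below NC in both numbered 8 (18.2%), beside 39.3% of all genes. FBL, RRP12 and TSR1 lay on opposite sides of NC in the 2 knockdowns. As a median over the 44 genes, SMARCA4-KD1 was 0.37 above NC on the log2 scale and SMARCA4-KD2 0.28 above it, whereas the medians over all genes were −0.004 and 0.02.

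At 1.5-fold or more, 12 members were higher in SMARCA4-KD1, where 11.2% of all genes were, and 7 were higher in SMARCA4-KD2, where 10.1% were. Only NCL was lower by that margin in SMARCA4-KD1, where 12.3% of all genes were lower, and no member was in SMARCA4-KD2, where 9.74% were. Both knockdowns shared 7 of the 44 genes (15.9%) as at least 1.5-fold higher: RNA5-8S5, NOLC1, NIP7, POLR1B, DKC1, DDX10 and POLR1C. Without RNA5-8S5 the count was 6 of 43 (14.0%). The same call held for 6.35% of all genes, and for 6.76% once only genes well above background everywhere were kept. No member was at least 1.5-fold lower in both, against 8.03% of all genes. The count of 7 fell to 4 (9.09%) under quantile normalization, where 5.67% of all genes met the threshold, and also to 4 when the trend of the fold change with intensity was removed, where 5.97% did. RNA5-8S5, NOLC1, NIP7 and POLR1B met the threshold in both knockdowns under all 10 settings, so RNA5-8S5 is part of both counts of 4. DKC1 met it under 8 of the 10 settings, and POLR1C and DDX10 under 6 each. At least 2-fold higher in both were 3 members, beside 1.46% of all genes, and none was lower, beside 2.11%. Just outside the threshold were the 5 members that met it in SMARCA4-KD1 alone, NOP10, PNO1, NOP16, BYSL and MRTO4, with log2 fold changes between 0.59 and 0.73 there and between 0.50 and 0.55 in SMARCA4-KD2.

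**Figure D1:**
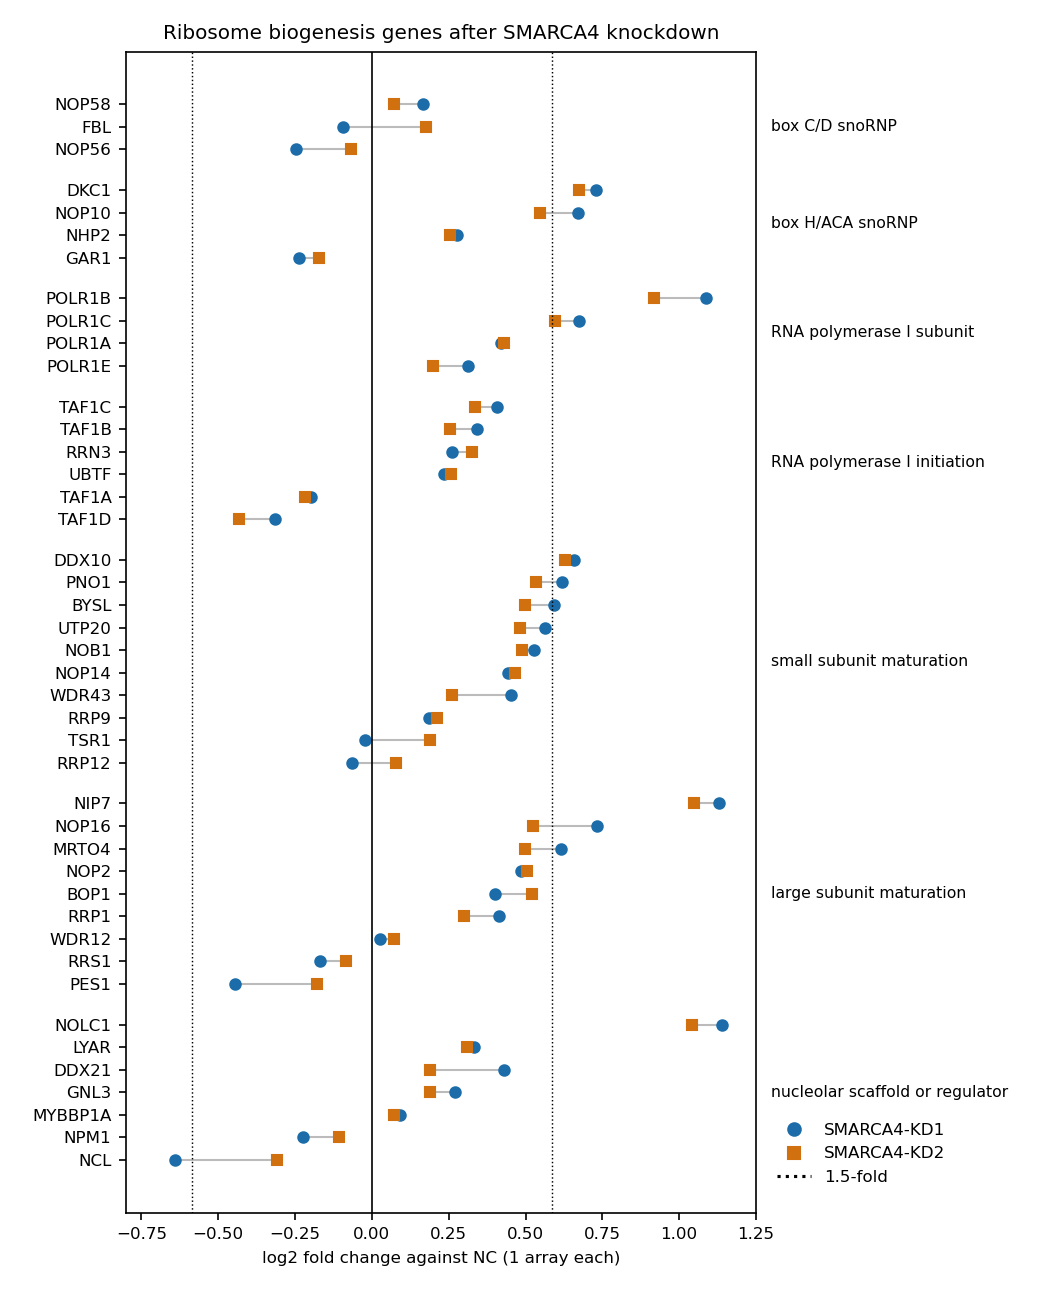
Log2 fold change against NC of the 43 protein-coding members, grouped by role, in SMARCA4-KD1 (circles) and SMARCA4-KD2 (squares), 1 array each and without error bars; RNA5-8S5 is left out because its values, 8.01-fold and 6.37-fold, lie off the axis. The dotted lines mark 1.5-fold, and NOLC1, NIP7 and POLR1B stand farthest to the right while NCL is the only circle past the left line.

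limma, which took both knockdown arrays as one group against the single NC array with 1 residual degree of freedom, called no member at an adjusted p under 0.05, and it called 0% of all genes. The smallest adjusted p among the members was 0.0675. At an unadjusted p under 0.05, limma passed 25 of the 44 members, beside 31.6% of all genes, and the methods' t-test passed 10 members, beside 14.3% of all genes. At the threshold of 0.01 that the methods name, the t-test passed 1 member, beside 3.66% of all genes, and it passed 0 after Benjamini-Hochberg adjustment. The limma count changed with the processing, from 0 to 28 members (63.6%), and the latter was reached with no filter, where limma called 71.4% of all genes.

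Among the members, RNA5-8S5 differed most. It stands for the 5.8S ribosomal RNA, which pairs with the 28S RNA in the large subunit, and it is present in many near-identical copies that a probe cannot tell apart. Its probe read 8114 and 6221 after the 2 knockdowns, and 954.5 in the NC cells. Both knockdown arrays were thus well above the control array, 8.01-fold in SMARCA4-KD1 and 6.37-fold in SMARCA4-KD2. The array's own error estimate for each of these differences was 0.20 on the log2 scale, which was nearly the same for every member. The mean of both knockdowns stayed between 2.74 and 2.84 under all settings.

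The other 2 RNAs that are cut from this kind of precursor did not share this difference. RNA18S5, the RNA of the small subunit, gave signals of 19208, 11210 and 11104 in SMARCA4-KD1, SMARCA4-KD2 and NC, so that only SMARCA4-KD1 lay apart from NC, by a log2 fold change of 0.70 beside −0.02 in SMARCA4-KD2. RNA28S5, the RNA of the large subunit, gave 227518, 232118 and 237813 on the same arrays. Its log2 fold changes were −0.15 and −0.07, both within the array's error of 0.20. The 3 probes are shown because they read RNAs that are made from a common precursor and gave different results. The RNA28S5 probe is placed at a distance from the other two, so the positions given are not those of 1 copy of the unit. Each is 60 bases long with 45% G and C, is written 5′ to 3′ as on the array and lies on the plus strand of an unplaced contig of hg19, at chrUn_gl000220:156050-156109 for RNA5-8S5, chrUn_gl000220:154856-154915 for RNA18S5 and chrUn_gl000220:117142-117201 for RNA28S5.
RNA5-8S5: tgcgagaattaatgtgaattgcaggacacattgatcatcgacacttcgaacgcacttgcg
RNA18S5: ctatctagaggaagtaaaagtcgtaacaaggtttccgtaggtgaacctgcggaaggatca
RNA28S5: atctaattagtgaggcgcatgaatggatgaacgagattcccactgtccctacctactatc
The files do not say how total RNA was primed for labelling, and the part of priming or of RNA quality in these values was not tested.

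Other structured RNAs gave small differences. RMRP, the RNA of RNase MRP, which cuts the ribosomal precursor, gave signals of 2636, 2109 and 2313 in SMARCA4-KD1, SMARCA4-KD2 and NC. RPPH1, the RNA of RNase P, which trims transfer RNA precursors, was above NC on both knockdown arrays, with log2 fold changes of 0.38 and 0.20. SNORD3B-1, a copy of the U3 RNA needed for processing of the 18S RNA, had log2 fold changes of −0.10 and 0.09. RN7SK, which restrains transcription elongation, had 0.26 and 0.12, RN7SL1, the RNA of the signal recognition particle, had −0.06 and −0.21, and TERC, the telomerase RNA, had −0.01 and −0.02. Of the 9 structured RNAs with a value, of 15 names listed, RNA5-8S5 was the 1 that was at least 1.5-fold higher in both knockdowns, beside 6.35% of all genes, and none was lower by that margin in both, beside 8.03%.

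**Figure D2:**
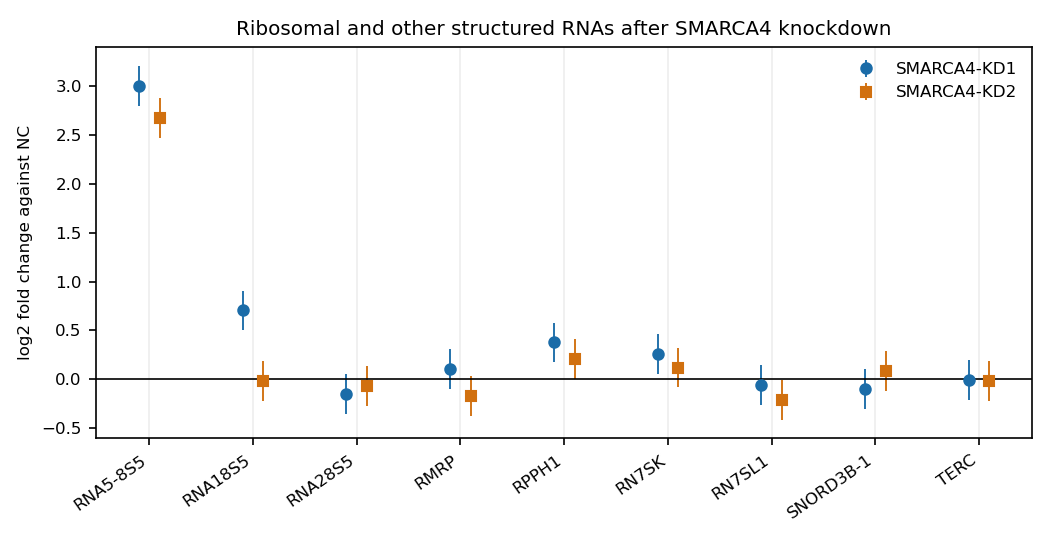
Log2 fold change against NC of 9 structured RNAs in SMARCA4-KD1 (circles) and SMARCA4-KD2 (squares), 1 array each; bars are the array's own error estimate of the difference. RNA5-8S5 stands alone at the top, at 8.01-fold and 6.37-fold, with RNA18S5 at 0.70 and −0.02, and the others between −0.21 and 0.38.

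Of the 4 subunits of RNA polymerase I among the members, POLR1B and POLR1C passed 1.5-fold, upward, in both knockdowns, beside 6.35% of all genes. The median of the mean log2 fold change over the 4 was 0.53. POLR1B, the second-largest subunit and part of the catalytic core, gave signals of 2807, 2408 and 1246 in SMARCA4-KD1, SMARCA4-KD2 and NC. Both knockdown arrays were about 2-fold above NC, with log2 fold changes of 1.09 and 0.92. Its second probe gave 1.11 and 0.90, so 2 probes at separate positions, chr2:113333426-113333485 and chr2:113334680-113334739 (hg19), gave nearly the same difference. POLR1C, which RNA polymerase III also uses, gave signals of 9683, 8848 and 5721, and its log2 fold changes were 0.67 and 0.60. Its other probes gave 0.63 and 0.54, and 0.36 and 0.27. POLR1A, the largest subunit, had signals of 1223, 1185 and 860.6, with log2 fold changes of 0.42 and 0.43. A second and much dimmer POLR1A probe gave −0.22 and −0.97, and the mean of both probes turned the direction of the gene, to −0.09. POLR1E, a subunit that acts in initiation and elongation, gave signals of 1415, 1258 and 1073, or 0.31 and 0.20 on the log2 scale, the latter within the array's error.

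The factors that bring RNA polymerase I to its promoter were split. UBTF, which binds the ribosomal DNA, gave signals of 334.4, 327.8 and 267.9, and RRN3, which links the polymerase to its promoter factors, gave 2312, 2329 and 1818. Both were above NC on both arrays, with log2 fold changes of 0.23 and 0.26 for UBTF and of 0.26 and 0.32 for RRN3. The dimmer RRN3 probes gave 0.16 and −0.09, and 0.20 and −0.07. Within the selectivity factor SL1, which contains the TATA-binding protein and the TAF1 subunits, the members lay on both sides of NC. TAF1C had log2 fold changes of 0.41 and 0.34 and TAF1B of 0.34 and 0.26, whereas TAF1A had −0.20 and −0.22. TAF1D was the lowest of them, with signals of 5959, 5292 and 6984 and log2 fold changes of −0.31 and −0.43. The mean over the 3 TAF1B probes, of which 2 were near background, turned its direction to −0.09. None of the 6 initiation factors reached 1.5-fold in either knockdown.

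Of the ribonucleoprotein genes for modification of ribosomal RNA, 1 of the 4 box H/ACA genes, which serve pseudouridine formation, was at least 1.5-fold higher in both knockdowns, and none of the 3 box C/D genes, which serve methylation, was. The share over all genes was 6.35%. DKC1, the pseudouridine synthase, gave signals of 14436, 13364 and 8200 in SMARCA4-KD1, SMARCA4-KD2 and NC, with log2 fold changes of 0.73 and 0.67. NOP10, a small core protein of the same particle, gave 64507, 57056 and 38207, with 0.67 and 0.55. NHP2, which also belongs to the core, had log2 fold changes of 0.28 and 0.25. GAR1, the remaining core protein, lay below NC on both arrays, at signals of 10617, 10709 and 11800 and log2 fold changes of −0.24 and −0.17. The box C/D methyltransferase FBL had −0.10 and 0.18, and its partner NOP58 had 0.17 and 0.07. NOP56 depended on the probe: the brighter one gave −0.25 and −0.07, and the other, with signals of 3853, 3740 and 2581, gave 0.49 and 0.50. Median mean log2 fold changes were 0.44 for the 4 box H/ACA proteins and 0.04 for the 3 box C/D proteins, and the difference between these groups was not tested.

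Of 10 small subunit factors, each read at its brightest probe, 8 were above NC in both knockdowns, beside 41.1% of all genes. None was below in both, beside 39.3%, and the median mean log2 fold change of the 10 was 0.48. DDX10, a putative RNA helicase, gave signals of 11417, 10785 and 6824 in SMARCA4-KD1, SMARCA4-KD2 and NC, and its log2 fold changes were 0.66 and 0.63. Its second probe, with signals of 127.6, 151.5 and 132.3, gave −0.14 and 0.16, and averaging both probes brought the gene to 0.33. PNO1 and NOB1, which act at the last cut that forms 18S RNA, had log2 fold changes of 0.62 and 0.53 and of 0.53 and 0.49. NOB1 was spotted repeatedly, and its mean log2 level relative to the 75th percentile was 4.80 ± 0.02 (SD, 9 spots) in SMARCA4-KD1, 4.76 ± 0.03 (10 spots) in SMARCA4-KD2 and 4.27 ± 0.04 (9 spots) in NC. The gap between each knockdown and NC exceeded the SD of the spots on every array, but spots share an RNA sample and are not replicates of the condition. BYSL had log2 fold changes of 0.59 and 0.50, UTP20 of 0.56 and 0.48, and NOP14 of 0.44 and 0.47, and all 3 belong to the pre-40S or small subunit processome machinery. WDR43 had 0.45 and 0.26, and RRP9, which binds the U3 particle, had 0.19 and 0.21. RRP12 had −0.07 and 0.08. TSR1, a late pre-40S factor, had −0.02 and 0.19 at its brightest probe, with signals of 136453, 152196 and 130454. The array design places only 30 bases of that probe. The other TSR1 probe gave much lower signals of 2677, 2649 and 3019 and lay below NC on both arrays, with −0.26 and −0.22.

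Of 9 large subunit factors, 7 were above NC in both knockdowns, beside 41.1% of all genes, and 2 below, beside 39.3%. Their median mean log2 fold change was 0.46. NIP7, needed for 60S assembly, gave signals of 3959, 3606 and 1705 in SMARCA4-KD1, SMARCA4-KD2 and NC, so both knockdown arrays were over 2-fold above NC, with log2 fold changes of 1.13 and 1.05. NOP16 gave signals of 10489, 8741 and 5944, with 0.73 and 0.52, and MRTO4, a stand-in for a stalk protein during assembly, gave 2785, 2472 and 1711, with 0.62 and 0.50. NOP2, an RNA methyltransferase, had log2 fold changes of 0.49 and 0.50, and RRP1 had 0.41 and 0.30. The 3 proteins of the PeBoW complex, which is needed for processing of the large subunit RNAs, differed from each other. BOP1 gave signals of 6081, 6365 and 4338 and log2 fold changes of 0.40 and 0.52. PES1 gave 533.6, 617.8 and 684.2, below NC on both arrays, with −0.44 and −0.18. WDR12 had 0.03 and 0.07. RRS1, which helps to incorporate 5S RNA, had −0.17 and −0.08.

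By the mean of both knockdowns, the nucleolar scaffold and regulator genes held the highest protein-coding member, NOLC1, and the lowest, NCL. In SMARCA4-KD2 alone NIP7 was above NOLC1 and TAF1D below NCL, and NIP7 was also above NOLC1 under quantile normalization. NOLC1, a chaperone of small nucleolar ribonucleoproteins, gave signals of 14892, 13413 and 6369 in SMARCA4-KD1, SMARCA4-KD2 and NC, with log2 fold changes of 1.14 and 1.04. NCL, or nucleolin, gave 37496, 45567 and 55140, with −0.64 and −0.31. The 2 knockdown arrays of NCL differed by 0.33 from each other, the widest gap among the members. NPM1, or nucleophosmin, gave 140976, 147331 and 154996 at its brightest probe, with −0.22 and −0.11, and its other probes gave values between −0.10 and 0.08. DDX21, an RNA helicase, had log2 fold changes of 0.43 and 0.19, LYAR had 0.33 and 0.31, GNL3, or nucleostemin, had 0.27 and 0.19, and MYBBP1A had 0.09 and 0.07.

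**Figure D3:**
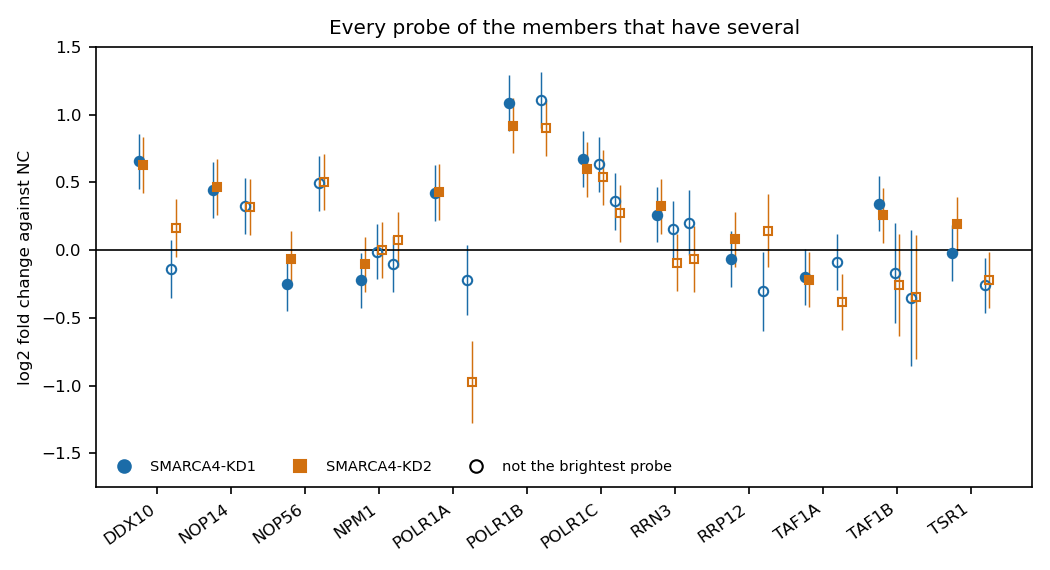
Log2 fold change against NC at every probe of the 12 members that have 2 or 3 probes, in SMARCA4-KD1 (circles) and SMARCA4-KD2 (squares); filled symbols are the brightest probe, which stands for the gene, and bars are the array's own error estimate. The POLR1B probes agree, those of NOP56 lie on opposite sides of 0, and the lowest point is a dim POLR1A probe at −0.97.

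The choice of probe mattered for some members. Of 16 further probes of the 12 members with more than 1, 5 had the direction of the brightest probe in both knockdowns and 4 had the opposite direction in both. These 4 were the second probes of NOP56 and POLR1A and both further TAF1B probes. The other 7 differed in 1 knockdown or belonged to a gene whose brightest probe lay on opposite sides of NC. The remaining 32 members had 1 probe, among them RNA5-8S5, NOLC1, NIP7 and DKC1.

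The SD of the difference between SMARCA4-KD1 and SMARCA4-KD2 was 0.14 over the 44 members on the log2 scale, and 0.25 over the 19503 genes that were, like the members, well above background on every array. Of the 33 members above NC in both, 25 were higher in SMARCA4-KD1 than in SMARCA4-KD2, and among all genes above NC in both this held for 4965 of 9288. The knockdowns share the NC array, so a deviation of that array would move both in the same direction, and this cannot be told apart from a shared response.

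A wider list of 124 other genes of ribosome production, all measured, was also on the whole higher. Like the members, it was chosen with earlier results of these data known, so it is not an independent check. Of these 124 genes, 93 (75%) were above NC in both knockdowns, beside 41.1% of all genes. Below NC in both were 20 (16.1%), beside 39.3%. The median log2 fold changes of the list were 0.41 for SMARCA4-KD1 and 0.36 for SMARCA4-KD2. At least 1.5-fold higher in both were 25 genes of the list (20.2%), beside the 6.35% of all genes given above, and 1 was lower by that margin in both, beside 8.03%. Highest was NLE1, a large subunit assembly factor, with signals of 9725, 7851 and 3239 in SMARCA4-KD1, SMARCA4-KD2 and NC and differences of 2.83-fold and 2.37-fold from NC. EMG1, a methyltransferase of 18S RNA, had log2 fold changes of 1.22 and 1.12, and DIMT1, which dimethylates the same RNA, was 2.14-fold and 2.01-fold higher. NIFK, a nucleolar partner of Ki-67, had log2 fold changes of 1.22 and 1.06. The gene that was lower was PELP1, a part of a complex that acts in large subunit maturation and also a nuclear receptor coregulator, with signals of 3499, 3713 and 6325 and log2 fold changes of −0.94 and −0.80.

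By role, 33 of 41 further small subunit genes were above NC in both knockdowns and 4 below. All counts by role stand beside 41.1% of all genes above NC in both and 39.3% below. At least 1.5-fold higher in both were 6.35% of all genes. Of the 41 genes, 11 (26.8%) reached this, namely CIRH1A, UTP6, TBL3, NOL10, NOL11, HEATR1, BMS1, IMP4, EMG1, KRR1 and DIMT1. HEATR1, a large processome protein also needed for RNA polymerase I transcription, had log2 fold changes of 0.83 and 0.84. Of 43 further large subunit genes, 32 were above NC in both and 9 below. At least 1.5-fold higher in both were 9 (20.9%), among them GTPBP4 and EIF6, which keeps the subunits apart. Their log2 fold changes were 0.88 and 0.66 for GTPBP4 and 0.86 and 0.78 for EIF6. Among 24 genes of RNase MRP and the exosome, which trim the precursor, 18 were above NC in both and 4 below. RPP30, RPP38 and SKIV2L2 (12.5%) were at least 1.5-fold higher in both, and RPP30 had 1.22 and 1.00. Of 7 further RNA polymerase I genes, 5 were above NC in both and 1 below, and only ZNRD1, another subunit, passed 1.5-fold in both, with 0.68 and 0.67. Of 9 genes for assembly of small nucleolar ribonucleoproteins, 5 were above NC in both, 2 below and 2 on opposite sides, and only NUFIP1, which assembles box C/D particles, passed, with 0.73 and 0.65.

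**Figure D4:**
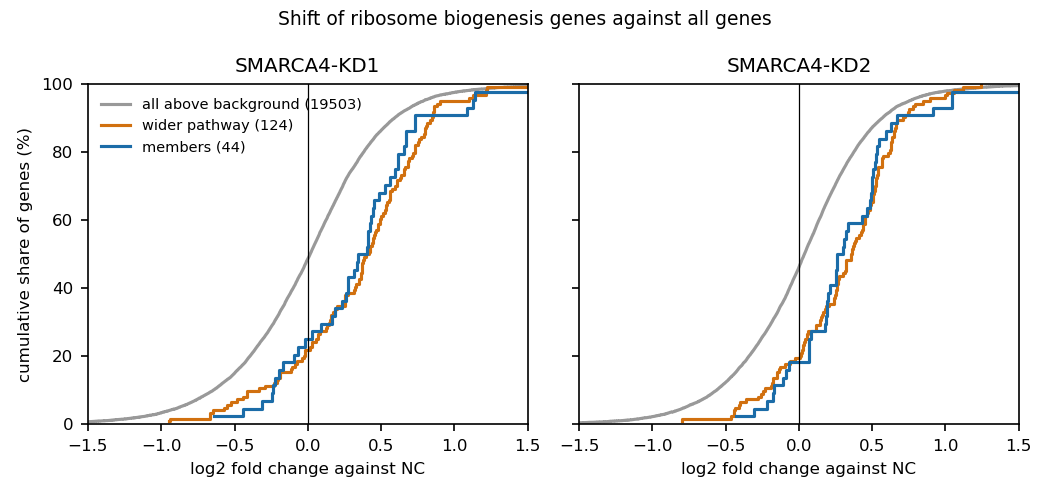
Cumulative share of genes, in percent, by log2 fold change against NC in SMARCA4-KD1 (left) and SMARCA4-KD2 (right), for the 44 members, the 124 wider pathway genes and the 19503 genes well above background on all arrays; RNA5-8S5 and the tails of all genes run past the axis. Both pathway curves lie to the right of the curve of all genes over most of the range, with medians of the members at 0.37 and 0.28.

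The promoters of the members were read for CACGTG, a palindromic hexamer and a form of the E-box, to which MYC and related factors can bind. Other forms of the E-box were not counted. RefSeq promoters of 300 bases, 250 before and 50 after the start (GRCh38.p14), matched 37 of the 44 members by symbol. NOP58, RNA5-8S5, POLR1E, RRS1, BOP1, RRP12 and NOLC1 were not matched. The hexamer was present in 12 of 37 (32.4%), in 28 of 109 matched wider pathway genes (25.7%), in 10.0% of the 10637 matched genes that were well above background on every array, and in 7.26% of all 35116 promoters. In 9 of the 12 it lay after the start, which held for 11.0% of the hexamer-bearing promoters of genes well above background. The median mean log2 fold change was 0.48 for the 12 members with the hexamer, of which 10 were above NC in both knockdowns, and 0.30 for the 25 without it, of which 18 were. None of the 5 matched members that were at least 1.5-fold higher in both, NIP7, POLR1B, DKC1, DDX10 and POLR1C, had it in this window. The promoters of NOP10, PNO1 and MRTO4 are shown, as the 3 members with the hexamer that had the highest mean log2 fold change, with the hexamer in capitals. They lie at chr15:34343087-34343386 on the minus strand, chr2:68157638-68157937 on the plus strand and chr1:19251555-19251854 on the plus strand.
NOP10: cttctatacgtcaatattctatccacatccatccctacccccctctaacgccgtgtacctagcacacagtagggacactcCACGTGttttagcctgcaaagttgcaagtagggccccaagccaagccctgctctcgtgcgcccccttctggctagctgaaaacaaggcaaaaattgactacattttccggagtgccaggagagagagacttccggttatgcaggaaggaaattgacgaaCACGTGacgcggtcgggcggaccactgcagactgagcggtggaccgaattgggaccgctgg
PNO1: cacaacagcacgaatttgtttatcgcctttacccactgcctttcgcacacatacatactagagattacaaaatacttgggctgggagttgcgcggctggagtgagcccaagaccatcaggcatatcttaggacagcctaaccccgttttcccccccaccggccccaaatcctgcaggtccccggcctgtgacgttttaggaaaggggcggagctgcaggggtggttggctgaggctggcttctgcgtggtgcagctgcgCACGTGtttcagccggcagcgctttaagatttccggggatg
MRTO4: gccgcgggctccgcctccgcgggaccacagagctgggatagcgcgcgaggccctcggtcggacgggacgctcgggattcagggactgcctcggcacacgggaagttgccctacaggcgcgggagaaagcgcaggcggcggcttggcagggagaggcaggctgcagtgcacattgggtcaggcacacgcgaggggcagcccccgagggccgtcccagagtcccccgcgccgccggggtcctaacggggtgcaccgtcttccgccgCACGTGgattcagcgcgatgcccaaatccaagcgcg
In NOP10 the hexamer starts 170 and 11 bases before the start, and in PNO1 and MRTO4 at bases 10 and 15 of the transcript. These matches describe letters in a window and were not tested against binding.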

How the data were processed

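Total RNA of 3 HCT116 samples was labelled with Cy3 and hybridised by the authors to 1-colour arrays, and Agilent Feature Extraction 10.7.1.1 gave the deposited intensity of each spot (background-subtracted processed signal, hg19 design). The paper lists 2 siRNAs against SMARCA4, but no label ties an array to either of them or describes its culture. The only spread behind limma's p-values was that between the 2 knockdown arrays, with each gene's value drawn towards an intensity trend over all genes. That spread may mix siRNA, culture and technical differences, which cannot be told apart, and the spread of NC was not measured. The deposited intensity was taken as log2, outlier spots were dropped, repeated spots were averaged, the 75th percentile of non-control probes was subtracted, and dim values were set to the lowest value well above background. Genes had to be well above background on at least 1 array, and the brightest probe stood for a gene. The series-level table of the same intensity, also deposited, served as an alternative; all 59 member probes with 1 spot lay within 0.1% of the scanner values in it. limma 3.58.1 (R 4.3.3) with an intensity trend was run, also on simulated data. Those had equal noise at every intensity and no slide difference, so they could not check the trend or the slide. The test called the methods' t-test here was a Student's t-test of both knockdown arrays against the single NC array. The paper names Student's t-test in general but no test for its arrays, so this test does not repeat the authors' calls. The other steps used Python 3.11.15. Errors of single differences combine the processed-signal errors of 2 arrays. They were nearly constant, between 0.204 and 0.206 at the brightest probes of the members. The median SD of repeated spots was about 0.03 on each array. Neither value holds any spread between cultures or slides. Named were all members, wider pathway genes past 1.5-fold in both knockdowns, all measured structured RNAs, SMARCA4 and PRMT1. Alternatives were quantile normalization, normexp background correction (offset 50), another percentile base, filters and floors on dim probes, the mean over probes, removal of the intensity trend and a 2-fold threshold. The members and lists were chosen with earlier results of these data known. Of the 44 member names, 43 are current RefSeq symbols and 1 is an older one. Depth does not apply to arrays; their number limits the precision.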

Additional observations from a re-analysis of the deposited data

Results flagged for a closer look

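The transcripts below, 6 in number, lay on opposite sides of NC in the 2 knockdowns, and the difference was not tested, since each knockdown was 1 array. Given as SMARCA4-KD1 minus SMARCA4-KD2 on the log2 scale, it was 0.72 for RNA18S5, 0.27 for RMRP and −0.19 for SNORD3B-1 among the structured RNAs. For the protein-coding members it was −0.27 for FBL, −0.21 for TSR1 and −0.15 for RRP12. The array's own error of a difference was about 0.20, and the value of RNA18S5 was the one that exceeded it most.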

How the results depend on the processing

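The count of members at least 1.5-fold higher in both knockdowns was 4 under quantile normalization, 4 with the intensity trend removed and 3 at a 2-fold threshold. It was 5 with the percentile over probes well above background. At 2-fold the wider pathway genes numbered 4 higher, beside 1.46% of all genes, and 0 lower, beside 2.11%. The members' median log2 fold change in SMARCA4-KD1 was 0.30 under quantile normalization, 0.30 with the mean over probes and 0.29 with the intensity trend removed, and the median of the wider pathway genes was 0.29 under quantile normalization, 0.32 with the percentile over probes well above background and 0.28 with the intensity trend removed. limma called 9 members under quantile normalization, 17 with normexp, 7 with the percentile over probes well above background, 22 with the filter on all arrays, 28 with no filter, 16 with no floor, 17 from the series-level table, 7 with the intensity trend removed and 25 unadjusted, and the methods' t-test passed 10 unadjusted. In the same order, limma called 2432, 3709, 1598, 5176, 30934, 3360, 3731 and 2342 of all genes adjusted and 7143 unadjusted, and the methods' t-test 3230; the cause was not tested. Of the members and wider pathway genes past 1.5-fold in both knockdowns, none changed sign under these alternatives. Of the other members, 8 did under at least 1 of them: NOP56, POLR1A, TAF1B, RRP12 and TSR1 with the mean over probes, and FBL, NOP58 and WDR12, whose values stayed between −0.05 and 0.12. Leaving out RNA5-8S5, a check chosen after seeing the data, moved neither the count nor the medians of the members beyond the limits used. No paired analysis was possible because each condition was 1 array, and for the same reason no array could be left out. Precision is limited by the single NC array and by dim second probes.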
